A study of Caenorhabditis elegans with 2 samples.

Results

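The genes described here are 31 genes of the Caenorhabditis elegans intestine, picked by name, out of 19973 protein-coding genes in the annotation. For each gene, HPL-2 candidate regions were collected whose summit lay within 1000 bp of an annotated 5′ end or inside the gene body. The protein was mapped by chromatin immunoprecipitation followed by sequencing (ChIP-seq), which recovers the DNA bound by a chosen protein. HPL-2 is a worm homologue of heterochromatin protein HP1. The 2 libraries, which the labels number as biological replicates 1 and 3 of 1 group, came from whole L1 larvae of mixed sex that had hatched without food after bleaching. The strain, YL474, carries lin-35(n745), unc-119(ed3) and the integrated array vrIs64, in which the ges-1 promoter drives HPL-2 fused to GFP and FLAG, with the hpl-2 3′ untranslated region and unc-119(+). Both libraries therefore share the lin-35 mutation, and no library of another genotype, no feeding condition and no control library was analysed here. The ges-1 promoter is active in the intestine, but the chromatin came from the whole animal, and the labels name both the tagged protein and hpl-2 as the target of the antibody. The intestine is a minority of the cells in a larva, so binding in fewer cells and weaker binding per cell cannot be told apart.

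The worm intestine is a single tube of large epithelial cells that digests food, stores fat and, in adults, makes yolk. Its fate is set in the embryo by a relay of GATA transcription factors, in which END-3 and END-1 switch on ELT-7 and ELT-2, and ELT-2 and ELT-7 then stay on in the differentiated gut. These factors bind the sequence TGATAA and its relatives, and most gut effector genes carry such sites upstream. The genes were grouped as GATA factors (5 genes), vitellogenins (6), digestion (5), lipid metabolism (4), brush border (3), transport and junction (4), and metal and stress genes (4).

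The sequences below lie under the strongest intestine candidates, and they are given because a GATA site within 100 bp of the summit was found in a larger share of intestine candidates than of all candidates, a difference that was not tested. Each is the 30 bases around the TGATAA site nearest the summit, 5′ to 3′ on the strand of the gene, from the RefSeq copy of WBcel235, which has the ce11 sequence. Capitals mark TGATAA or its reverse complement TTATCA. The genes are the 7 highest in the pooled ranking whose strongest region holds a site within 100 bp of its summit. The strongest region of cpr-1 also holds TGATAA, but farther from the summit, and is not shown.
fat-6, IV:11914843-11914872, minus strand: ccgggttacttcTTATCAggttatgagaat
act-5, III:13606282-13606311, minus strand: tgagagagggagTTATCAgtatcaaacgca
cpr-6, X:6607177-6607206, plus strand: ataaaagcatgcTGATAAaagcgagcagtc
ifb-2, II:5749947-5749976, plus strand: agcattgccaacTGATAAccctctttcttt
mtl-1, V:6692135-6692164, minus strand: cttgtcaataacTGATAAaatcagaaacta
nhx-2, II:7694249-7694278, minus strand: caatattaactgTGATAAttgatgttaaga
elt-2, X:10480829-10480858, plus strand: caattttcttttTGATAAaatcagcctatc

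The site lay 10 bp from the summit at elt-2, 12 bp at ifb-2, 38 bp at act-5 and 50 bp at cpr-6, and 72 to 80 bp at mtl-1, nhx-2 and fat-6. All but the fat-6 site, which is in an intron, were upstream of the gene. Of the 52 pooled candidates at intestine genes, 23 (44.2%) held TGATAA on either strand within 100 bp of the summit, against 21.3% of the 30000 pooled candidates. The shorter word GATA, which TGATAA contains, was in 80.8% and 72.3%. The site is equally a feature of the genes. The promoter was taken from 250 bp before to 50 bp after the outermost annotated start. TGATAA was present in it at 22 of the 31 genes, against 30.2% of all protein-coding promoters. A match in these windows is a description of the letters and not evidence of a bound factor.

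None of the 31 intestine genes had a region in the authors' thresholded list, although fat-6 and act-5 stood close beneath it. The authors deposited 30000 candidate regions per library and another 30000 for the pooled libraries, and 857 of the pooled regions passed their reproducibility threshold. They label the 30000 pooled regions as peaks and background, so a candidate below the threshold is not by itself a binding site. The deposited −log10 q-value is higher for more significant regions. Over the strongest pooled candidates of the intestine genes it ran from 0.128 at elt-4 to 2.82 at act-5. Those 857 are the first 857 of the pooled list when ranked by the authors' enrichment signal, so rank 1 is the strongest region and rank 857 the last thresholded one. Of the 31 genes, 0 had a thresholded region, while 4.68% of all protein-coding genes had one. Counting error alone would allow a share of up to 9.68%, but that limit is for randomly drawn genes, and these 31 were picked by name. A pooled candidate was present at 21 of the 31 genes, against 61.8% of all genes, a share near the background. In the first 3000 ranks of the list stood 6 of the 31 genes, against 13.1% of all genes. All 6 ranked below the threshold, where within those 3000 ranks the strongest candidate of 8.41% of all genes lay. Over the 21 genes the median rank of the strongest candidate was 3794, and over all genes with a candidate it was 9500.5. These shares were set side by side without a test, because the genes were chosen with earlier results of these data known.

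**Figure D1:**
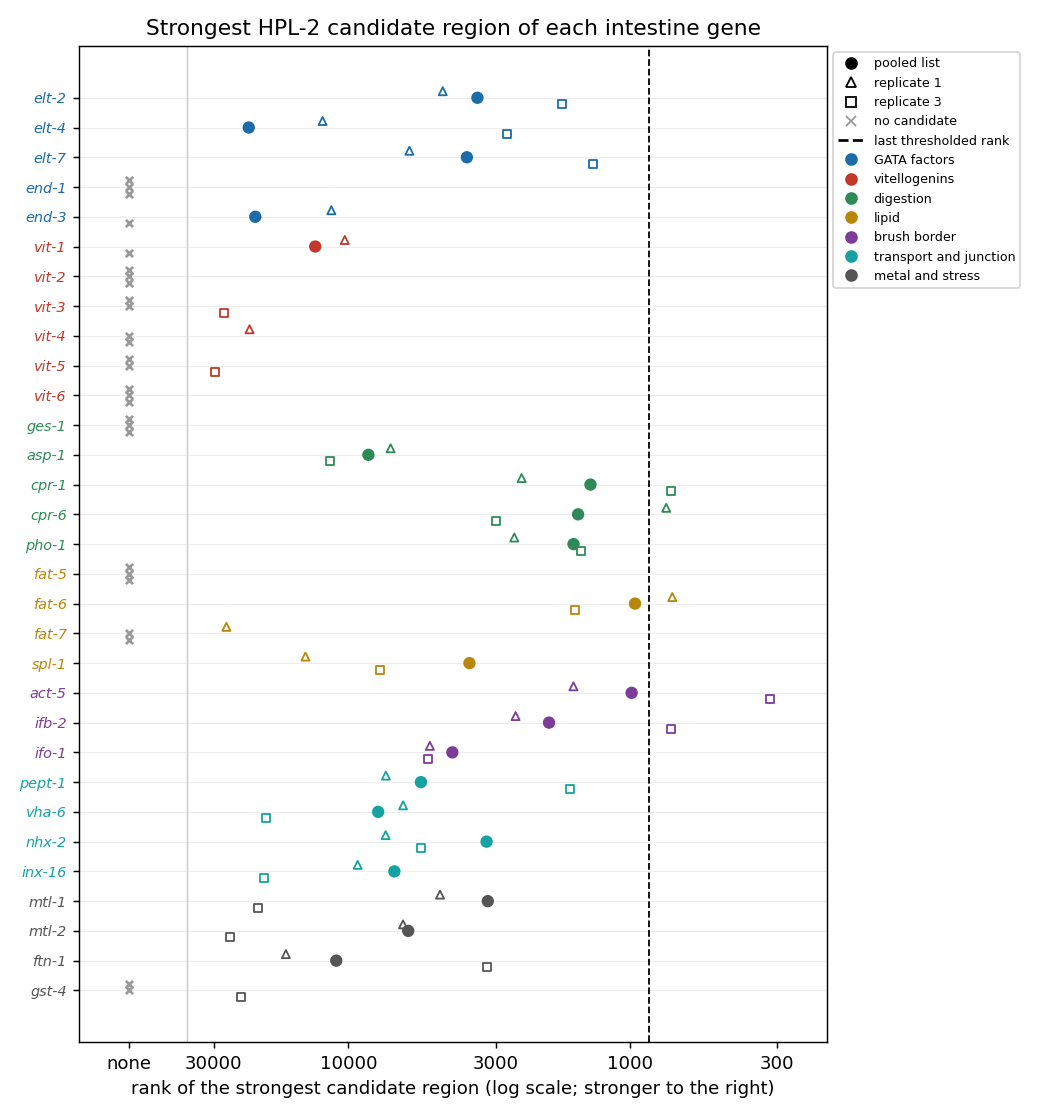
Rank of the strongest HPL-2 candidate at each of the 31 intestine genes (log scale, stronger to the right) in the pooled list (filled circles), replicate 1 (triangles) and replicate 3 (squares), coloured by gene group; grey crosses mark lists without a candidate. All pooled circles lie to the left of the dashed line at rank 857, the nearest being fat-6 at 960 and act-5 at 987.

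The brush border genes all had candidates and held some of the strongest. The gene act-5 encodes the actin of intestinal microvilli, and its strongest pooled region, III:13606070-13606445, had a signal of 35.5 and rank 987, with a summit 192 bp upstream of the 5′ end. Its strongest region had a signal of 23.4 (rank 1588) in replicate 1 and of 15.3 (rank 319) in replicate 3. For comparison, the last thresholded region had a signal of 37.9 and the median pooled candidate 11.4. At ifb-2, which encodes an intermediate filament protein of the layer beneath the microvilli, the summit lay 215 bp upstream of a 5′ end, in region II:5749785-5750160. That region had a pooled signal of 26.9 (rank 1939). The gene's strongest signal was 19.5 (rank 2548) in replicate 1, 620 bp past a 5′ end, and 11.9 (rank 717) in replicate 3, 179 bp upstream. In replicate 1 the upstream region overlapped a candidate of rank 2795. Both genes thus reached the first 857 regions of replicate 3 and neither did so in replicate 1. At ifo-1, which encodes an organizer of the same filaments, the strongest candidate was weaker, with a signal of 19.3 (rank 4272) and a summit in an intron 730 bp inside the gene. It ranked 5135 in replicate 1, and a region 351 bp upstream ranked 5232 in replicate 3.

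Among the digestion genes, the cysteine proteases and the acid phosphatase had strong candidates and ges-1 had none. The gene cpr-1 encodes a cathepsin B-like protease of the gut, and its region V:11975470-11975845 had a pooled signal of 30.7 (rank 1382), with the summit in an intron 107 bp past the 5′ end. Its signal was 19.8 (rank 2426) in replicate 1 and 11.9 (rank 716) in replicate 3. At cpr-6, another cathepsin B-like protease gene, region X:6607054-6607429 had a pooled signal of 29.4 (rank 1529) and its summit 35 bp past the 5′ end. This gene reached a signal of 31.8 (rank 744) in replicate 1. In replicate 3 no region overlapped the pooled one, and the gene's strongest candidate there, 567 bp past the 5′ end, had a signal of 7.27 (rank 2987). The cpr-6 start was therefore a candidate of replicate 1 alone. At pho-1, which encodes an intestinal acid phosphatase, region II:5234743-5235118 had a signal of 29.02 (rank 1587) and a summit 915 bp inside the gene, in an intron. Its signals were 19.4 (rank 2575) in replicate 1 and 9.23 (rank 1497) in replicate 3, higher in the list of replicate 3. The aspartic protease gene asp-1 had a weaker candidate, with a signal of 14.6 (rank 8484) 915 bp upstream, which ranked 7077 in replicate 1. In replicate 3 the gene's strongest candidate, 624 bp past the 5′ end, ranked 11604.

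Of the lipid genes, the desaturase gene fat-6 stood close to the threshold, spl-1 had a candidate near the median rank of the intestine genes, and fat-5 and fat-7 had no pooled candidate. The stearoyl-CoA desaturases FAT-6 and FAT-7 make oleic acid from stearic acid, and FAT-5 acts on palmitic acid. At fat-6, region IV:11914750-11915125 had a pooled signal of 36.1 (rank 960), the highest rank among the 31 genes, with the summit in an intron 229 bp past the nearest annotated 5′ end. Its signal was 32.5 (rank 708) in replicate 1 and 9.10 (rank 1563) in replicate 3. The gene held 5 pooled candidates in all, the other 4 ranking from 7672 to 12902. At fat-7 no pooled candidate was listed, and its single library candidate was in replicate 1 with a signal of 7.16 (rank 27073). At fat-5 no list had a candidate. The sphingosine phosphate lyase gene spl-1 had a pooled candidate with a signal of 20.4 (rank 3715) in an intron 278 bp past its 5′ end, and its strongest candidate ranked 14190 in replicate 1 and 7690 in replicate 3.

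**Figure D2:**
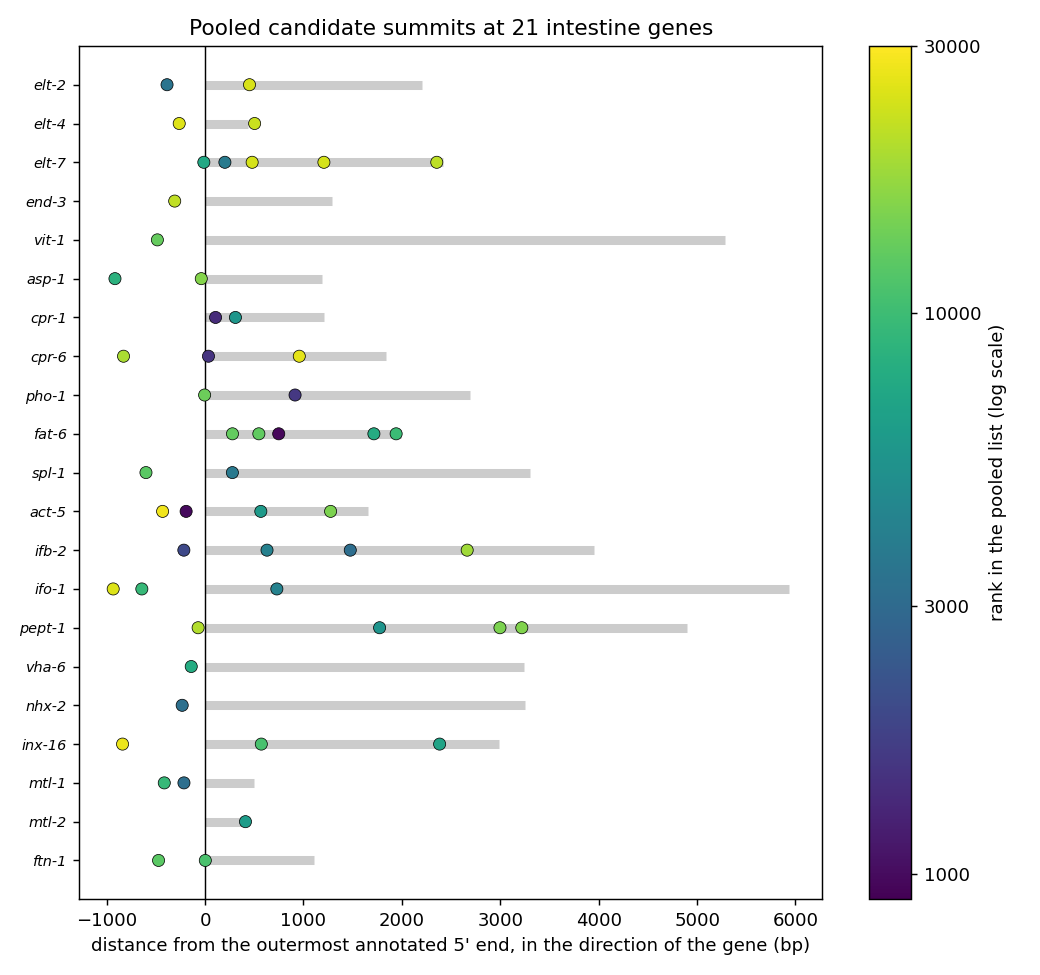
Summits of all pooled candidates at the 21 intestine genes that have any, as distance from the outermost annotated 5′ end in the direction of the gene (bp); grey bars are gene bodies and darker points are stronger candidates by pooled rank (log scale). The darkest points, at fat-6, act-5, cpr-1, cpr-6 and pho-1, fall both upstream and inside the gene, and the vit-1 body of 5280 bp has no summit.

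Among the GATA factor genes, elt-2 and elt-7 had the higher pooled ranks, elt-4 and end-3 had weak candidates and end-1 had none. At elt-2, the main regulator of the differentiated gut, region X:10480666-10481041 had a signal of 21.01 (rank 3481) and a summit 386 bp upstream of the 5′ end. The gene had a signal of 15.4 (rank 4622) in replicate 1 and 8.80 (rank 1747) in replicate 3. At elt-7, which acts alongside elt-2, the strongest of 5 pooled candidates had a signal of 20.2 (rank 3794) and lay in an intron 202 bp past a 5′ end. The gene ranked 6068 in replicate 1 (signal 13.9) and 1357 in replicate 3 (signal 9.55). At elt-4, a small GATA factor gene that lies upstream of elt-2 on the same strand of the X chromosome, the pooled candidates were weak, the stronger having a signal of 9.32 (rank 22557). The strongest candidate of elt-4 lay 205 bp upstream in replicate 1 (signal 10.5, rank 12339) and 491 bp upstream in replicate 3 (signal 7.48, rank 2743). The pooled region of rank 22557, just downstream of the gene, overlapped no replicate 1 candidate and a replicate 3 candidate of rank 8044. All 3 genes with candidates in both libraries ranked higher in replicate 3, where 49.4% of all genes with candidates in both did so. Of the factors that act only in the embryo, end-3 had a weak pooled candidate 308 bp upstream (signal 9.59, rank 21388) that ranked 11485 in replicate 1 with no candidate in replicate 3. For end-1 no list had a candidate, and the nearest pooled summit was 2029 bp from its 5′ end.

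The vitellogenin genes, which encode the yolk proteins made by the adult intestine, had almost no candidates. Across the windows of the 6 genes, 37.2 kb in all, a single pooled candidate was listed, 484 bp upstream of vit-1 with a signal of 12.1 (rank 13102). It ranked 10292 in replicate 1 (signal 11.3) and had no counterpart in replicate 3. At vit-3 and vit-5 the replicate 3 list had a candidate at ranks 27574 and 29615, and at vit-4 the replicate 1 list had one at rank 22412, all in the lower part of the lists. For vit-2 and vit-6 no list had a candidate. The density was 0.0269 candidates per kb, against 0.312 over all protein-coding genes and 0.605 over the other 25 intestine genes, a division made after the values were seen.

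Some of the vitellogenin genes have near copies of each other in the genome, which can prevent reads from being placed. Of the 36-base words in the window, those that occur once in the genome made up 33.1% at vit-3, 30.02% at vit-4 and 51.9% at vit-5, against a median of 99.8% over all protein-coding genes. At vit-1 and vit-2 they made up 83.8% and 83.4%. Genes below 90% had a pooled candidate in 44.4% of cases, and the rest in 65.04%. At vit-6, on chromosome IV, every word was unique and no list had a candidate. The sources used here give neither the read length nor the treatment of repeated reads, and the part of copies in the result was not tested. All 6 vitellogenin promoters carried TGATAA, as these 30-base stretches show for the gene without copies and for vit-2, both chosen after their values were seen; capitals again mark the site.
vit-6, IV:8261003-8261032, plus strand: tgtctcaatgacTGATAAgcatgctgagtc
vit-2, X:5100922-5100951, plus strand: ccatcaatgagcTTATCAatgcgctaaaac

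The transport and junction genes all had candidates in both libraries, none in the first 3000 ranks of the pooled list. The Na+/H+ exchanger gene nhx-2 had the highest rank of these 4, with a signal of 21.6 (rank 3230) at a summit 232 bp upstream, and ranked 7370 in replicate 1 and 5518 in replicate 3. The peptide transporter gene pept-1 had its strongest candidate, with a signal of 17.3 (rank 5523), in an intron 1774 bp past the 5′ end. That region overlapped no candidate of replicate 1, while replicate 3 had a candidate there at rank 1639 (signal 8.98). The gene vha-6 encodes an apical subunit of the proton pump, and its candidate 140 bp upstream ranked 7834. That region overlapped a candidate of replicate 1 (rank 6391) and none of replicate 3, where the gene's candidate lay 1072 bp past the 5′ end (rank 19665). For inx-16, a gap junction gene on chromosome I, the strongest candidate (rank 6862) lay 2373 bp inside the gene and was nearer to the 5′ end of inx-17. It was the only strongest candidate among the 21 genes that lay nearer to the 5′ end of another protein-coding gene. The strongest candidate of inx-16 ranked 9262 in replicate 1 and 19913 in replicate 3.

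The metal and stress genes were ranked differently by the libraries, as were genes of other groups such as vha-6, inx-16 and elt-4. At mtl-1, a metallothionein gene, the candidate 214 bp upstream had a pooled signal of 21.7 (rank 3198), and it ranked 4725 in replicate 1 (signal 15.2) and 20876 in replicate 3 (signal 2.81). The second metallothionein gene, mtl-2, had a pooled rank of 6127, just past its 3′ end, and ranked 6393 there in replicate 1. In replicate 3 no region overlapped the pooled one, and the gene's strongest candidate, 704 bp upstream, ranked 26336. The ferritin gene ftn-1 went the other way, with a pooled rank of 11034, 16649 in replicate 1 and 3211 in replicate 3. The replicate 3 candidate of rank 3211 lay 415 bp upstream. The strongest pooled region, 3 bp past the 5′ end, overlapped a replicate 3 candidate of rank 6263. The glutathione S-transferase gene gst-4 had a candidate in replicate 3 alone, at rank 24102.

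**Figure D3:**
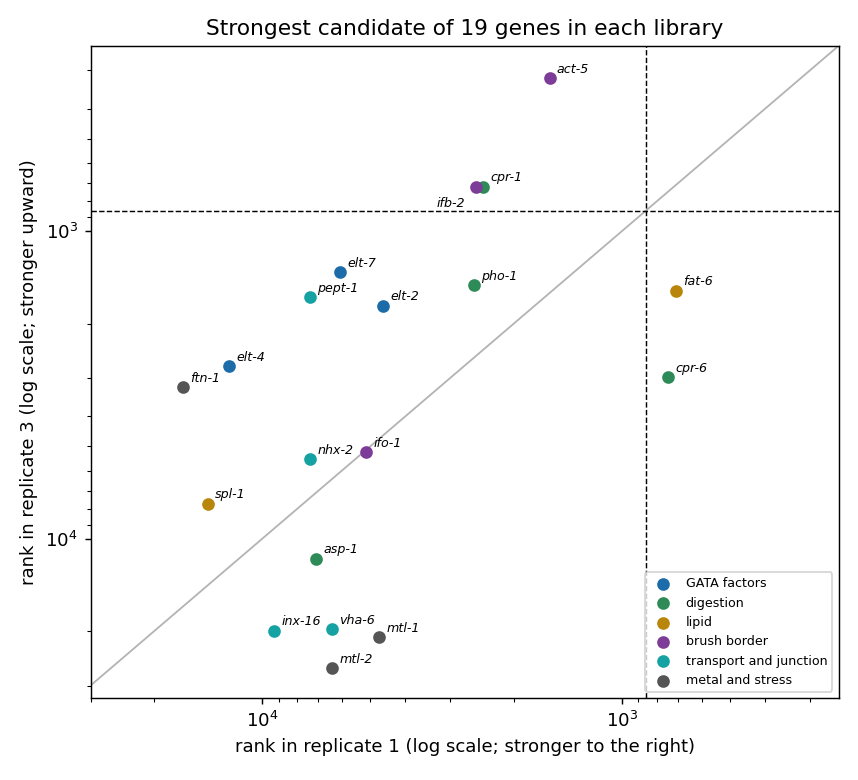
Rank of the strongest candidate in replicate 1 against replicate 3 for the 19 intestine genes with a candidate in both (log scales, stronger to the right and upward); dashed lines mark rank 857 and the grey line equal ranks. No gene lies in the upper right corner; act-5, ifb-2 and cpr-1 pass rank 857 in replicate 3 and fat-6 and cpr-6 in replicate 1.

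By the position of the summit, the libraries placed different intestine genes first. In the first 857 regions of replicate 1 were 2 intestine genes, fat-6 and cpr-6. In the first 857 of replicate 3 were 3 others, act-5, ifb-2 and cpr-1, so by this rule no gene was in both. At the 3′ end of fat-6, however, a replicate 3 region of rank 258 overlapped a pooled candidate of the gene and was not counted, because its own summit lay just past the gene. Of the 31 genes, 23 had a candidate in replicate 1, 22 in replicate 3 and 19 in both, against 63.1%, 62.6% and 47.4% of all protein-coding genes. Of the 19, 11 ranked higher in replicate 3. The strongest pooled region overlapped a candidate in both libraries at 14 of the 21 genes. Over all 52 pooled candidates the share was 59.6%, and over the 30000 it was 37.9%. Among the 6 genes in the first 3000 ranks 5 were matched in both libraries, the exception being cpr-6. Of all regions in those ranks, 88.4% were matched.

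Candidates were found upstream of genes, in introns and in exons. Of the 52 pooled candidates, 22 were upstream of the gene, 13 in introns, 10 in coding exons, 5 in untranslated exons and 2 just downstream. Of the 21 strongest ones, 9 were upstream, 7 in introns, 3 in untranslated exons, 2 downstream and 0 in coding exons, and 16 of the 21 lay within 500 bp of a 5′ end of the gene. The 1000 bp window around 5′ ends was part of how candidates were collected, so closeness to starts is not a finding. Median GC content within 100 bp of the 52 summits was 38.6%, between 34.3% for pooled candidates below the threshold and 42.8% for thresholded regions.

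Other intestine genes, outside the 31, had a pooled candidate more often, with a weaker median rank among the genes that had one. Of 42 further genes, 39 had a pooled candidate (92.9%, against 67.7% of the 31 genes), and 1 was empty in every list, against 5 of the 31. The median rank of their strongest candidate was 6398, against 3794. In the first 3000 ranks of the pooled list were 10 of the further genes (23.8%, against 19.4% of the 31 genes). The single gene with a thresholded region was ftn-2, a second ferritin gene, at rank 609 with a signal of 43.8. It ranked 742 in replicate 1 and 1710 in replicate 3. Of 24 body wall muscle genes, 16 had a pooled candidate and 1 was in the first 3000 ranks, and of 21 hypodermis genes the numbers were 12 and 1. The lists differ in gene length, and longer windows can hold more candidates. Per kb, there were 0.428 candidates at the 31 genes, 0.532 at the further intestine genes, 0.115 at the muscle genes and 0.249 at the hypodermis genes. No test of these differences was made.

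**Figure D4:**
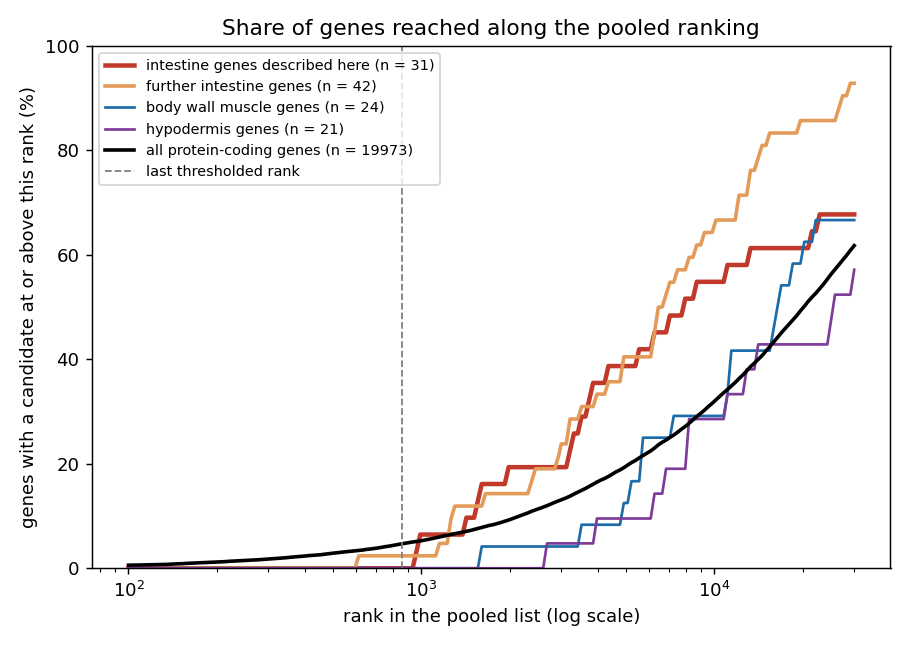
Share of genes with a pooled candidate at or above a given rank (log scale) for the 31 intestine genes, 42 further intestine genes, 24 body wall muscle genes, 21 hypodermis genes and all 19973 protein-coding genes; the dashed line marks rank 857. The 31 genes are at 0 at the dashed line, reach 19.4% at rank 3000, where all genes reach 13.1%, and end at 67.7% against 61.8%.

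The endogenous copies of the sequences on the array had no candidates. The gene ges-1, at V:1427653-1432137 on the minus strand, encodes a gut esterase, and its promoter drives the tagged protein. No list had a candidate at ges-1, and the nearest pooled summit was 17149 bp from its 5′ end. The same was true of hpl-2 and unc-119, both on chromosome III, so all 3 genes were empty in all lists, as were 20.1% of protein-coding genes. The stretch without a pooled summit was 38.2 kb around ges-1, 22.4 kb around hpl-2 and 32.1 kb around unc-119. The median distance between neighbouring pooled summits was 1787.5 bp, and 2.11% of protein-coding genes lay in a stretch as long as that of ges-1. For a stretch as long as that of hpl-2, the shortest of the 3, the share was 8.17%. The vitellogenin gene vit-5, whose sequence is not among those named for the array, lay in a stretch of 26.5 kb. In the 36-base word count ges-1 was 98.3% unique, unc-119 97.9% and hpl-2 68.4%. Reads from array copies and from the endogenous locus cannot be told apart in these lists. Whether the stretches around the 3 genes were masked before regions were called is not given in the sources used here, and masking would leave the same gaps. The part of masking or of the array in these gaps was not tested.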

How the data were processed

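HPL-2 ChIP-seq was analysed from 2 libraries of 1 group, replicates 1 and 3. Per the labels the library size range was 150 to 350. The authors deposited candidate regions per library and pooled, and a thresholded pooled list; per the file listings each derives from the alignments and a control file that was not analysed here. The sources used here name neither the aligner nor the caller, nor the threshold settings. Each region carries a signal, an enrichment value given by the authors, used to rank regions within a list. The deposited −log10 q-values reach a shared maximum in many regions and were not used for ranking. The lists hold no read counts, so depth is unknown and no interval for it can be given. The lists on ce10 were not used.

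Coordinates are 1-based on ce11. Summits were assigned to protein-coding genes of Ensembl release 115 in Python 3.11.15 with numpy 2.4.6 and pandas 2.3.3; figures used matplotlib 3.10.9. Every gene whose window held a summit was credited, and regions of 2 lists were matched by an overlap of at least 1 bp. Assignment and the count of 36-base words were tested on simulated data. The members and lists were chosen with earlier results of these data known. All members were accounted for, with full values for those in the first 3000 ranks of the pooled list, the GATA factors, the vitellogenins and ges-1. With 1 group and no control there is no contrast, and no test was run: counts stand beside the same count over all protein-coding genes. For a count of 0 the limit was set at 3 counts of the total, which covers counting error only. Of 22 listed hypodermis genes, 21 were found by name. Alternatives covered the window, the assignment rule, the rank limit, the overlap and each library alone.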

Additional observations from a re-analysis of the deposited data

How the results depend on the processing

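The number of genes with a thresholded region was also 0 with a window of 2000 bp and with any base of the region in place of the summit. The 500 bp window, the 5′ ends alone, the nearest gene alone and the upper 428 regions select from the same regions and could only give 0. With the first 857 regions of a single library it was 2 to 3 genes, depending on the library left out. With pooled ranks to 1714, it was 5 genes: fat-6, act-5, cpr-1, cpr-6 and pho-1. The number of genes with a pooled candidate ran from 21 to 23 over all alternatives. The median rank of the strongest candidates was 3794 and ranged from 4221.5 to 6393 with 1 library left out. The strongest pooled region was matched in both libraries at 14 genes with an overlap of 50% and at 12 with summits within 150 bp. Of the 21 genes, the strongest rank was the same for 20 with 500 bp, 14 with 2000 bp, 19 without gene bodies, 18 with any base of the region and 20 with the nearest gene alone. It was the same for 0 with replicate 1 left out (19 genes with a candidate) or with replicate 3 left out (21 genes). Those ranks come from the separate list of the other library, where an equal rank was hardly possible, so the 0 does not measure stability. The causes were not tested. No paired analysis was possible because there is 1 group. With no read counts, weak binding and missing depth cannot be told apart for genes without a candidate.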

Other observations

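Some intestine genes without a thresholded region of their own lay close to one. The 5′ ends of end-3 (2.39 kb), spl-1 (2.43 kb), asp-1 (2.81 kb) and cpr-1 (4.53 kb) were within 5 kb of a thresholded summit. These were 4 of 31 genes against 10.5% of all protein-coding genes, a share near the background. The median distance was 43.4 kb for the 31 genes and 45.4 kb for all genes. A median of 58 pooled summits lay within 100 kb of a gene's middle on either side, against 59 over all genes. At ges-1 the number was 38, and at vit-6, which had no candidate of its own, it was 61.

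In the 1000 bp upstream of the outermost annotated 5′ end, TGATAA occurred at 27 of the 31 genes, against 66.1% of all protein-coding genes. The 4 genes without it were end-1, ges-1, fat-5 and fat-6, of which fat-6 had the highest pooled rank among the 31 genes and the other 3 had no candidate in any list.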
